A study of Mus musculus with 19 samples.

Results

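The NRF2 oxidative stress response was followed in mouse neurospheres (NSPs), grown from neural stem cells, and in cells differentiating from them towards astrocytes. It was followed through 9 genes: Nfe2l2, Keap1, Gclc, Gclm, Slc7a11, Txnrd1, Srxn1, Nqo1 and Hmox1. The assay was ATAC-seq. A transposase inserts sequencing adapters where DNA is open, so accessible regions collect more reads. A peak was taken when its centre lay in the body of a member gene or within 20 kb of either end, and 46 of the 90154 peaks of the deposited table did so. Of these, 11 had their centre within 1 kb of a start of the member and are called promoter peaks, and 35 are called distal peaks. The reference used gave no start for Hmox1 and Gclc. The peak at the lower end of each was counted among the 11 and is called its gene-end peak.

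The NSPs were primary cells of wild-type C57BL/6J mice, taken at embryonic day 14 from the ventricular zone, kept as floating neurospheres with EGF. The titles of their libraries read astrocytes, untreated, 0 h. Differentiation was started by a change to medium with 10% fetal bovine serum on coated plates, either without or with tumor necrosis factor (TNF, 50 ng/ml), an inflammatory cytokine. There were 3 libraries each of NSPs, 24 h, 24 h with TNF, 72 h and 72 h with TNF, and 4 libraries at 1 week without TNF, 19 in all. The NSPs and the 1 week cells had no TNF arm. The labels do not say whether libraries of a group came from separate cultures or animals. The study's methods say in general that data came from independent biological experiments, without naming these libraries, so the p-values measure the spread between these libraries, which may be technical.

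NRF2, the product of Nfe2l2, is a transcription factor that pairs with small MAF proteins on antioxidant response elements. KEAP1 holds NRF2 in the cytoplasm and presents it to a CUL3 ubiquitin ligase, until oxidants or electrophiles modify KEAP1 and NRF2 escapes degradation. Its targets supply glutathione, thioredoxin and NADPH-dependent reduction, and astrocytes are known for a strong NRF2 response that also shields neighbouring neurons.

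Values are normalised read counts per peak, that is, the reads of a peak over the size factor of its library, and all 46 peaks span 500 bp. Total reads in peaks ranged from 28636739 to 39349111 in NSPs and from 9640256 to 25165008 in the other groups. Rank correlations between NSP libraries ran from 0.913 to 0.982. NSP replicate 1 was the lowest of the 3 NSP libraries at 21 member peaks and the highest at 20. These counts were not set against the other NSP libraries or all peaks. The names of the 72 h, 72 h with TNF and 1 week libraries carry a tag that the other names lack, so a difference of 72 h or 1 week from NSPs cannot be told apart from the tag. Of all peaks, 212 had at most 3 reads in each tagged library and at least 20 in each untagged library, and none of the 46 was among them. Of 7 astrocyte markers with a promoter peak, 2 rose at 24 h against NSPs, Gfap by 2.35 ± 0.22 (adjusted p = 6.36e-10) and Gpld1 by 0.54 ± 0.14 (adjusted p = 0.00197) on the log2 scale, while 3 fell, namely S100b, Slc1a3 and Sox9. At 1 week 4 rose and 1 fell. Their summed promoter signal overlapped between NSPs (1915 to 2487) and 1 week cells (2380.0 to 2511). That of 5 stem and progenitor markers was 3717 to 3914 in NSPs, 2262 to 2498 at 72 h and 3258 to 3451 at 1 week. None of the 5 microglia and leukocyte markers had a promoter peak. In such bulk samples, a changed share of cells of a type and a changed signal per cell cannot be told apart, and the part of cell makeup in the results below was not tested.

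The 250 bases upstream of 5 starts are printed here from RefSeq (GRCm38.p6), on the strand of the gene, because Srxn1 and Nqo1 are the members whose promoter peak changed with TNF and the other 3 hold a match to the antioxidant response element. Capitals mark matches to the motifs searched on both strands.
Srxn1, chr2:152105274-152105523, plus strand: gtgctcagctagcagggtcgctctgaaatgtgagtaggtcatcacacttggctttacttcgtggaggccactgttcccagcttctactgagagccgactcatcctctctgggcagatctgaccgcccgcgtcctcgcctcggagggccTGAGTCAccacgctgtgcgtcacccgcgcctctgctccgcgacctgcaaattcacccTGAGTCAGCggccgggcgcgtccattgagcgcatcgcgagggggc
Nqo1, chr8:107403206-107403455, minus strand: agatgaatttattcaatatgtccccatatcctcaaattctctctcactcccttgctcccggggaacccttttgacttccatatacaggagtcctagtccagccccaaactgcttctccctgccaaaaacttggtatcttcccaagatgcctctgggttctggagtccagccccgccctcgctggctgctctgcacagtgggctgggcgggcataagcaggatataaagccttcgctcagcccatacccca
Gclm, chr3:122245307-122245556, plus strand: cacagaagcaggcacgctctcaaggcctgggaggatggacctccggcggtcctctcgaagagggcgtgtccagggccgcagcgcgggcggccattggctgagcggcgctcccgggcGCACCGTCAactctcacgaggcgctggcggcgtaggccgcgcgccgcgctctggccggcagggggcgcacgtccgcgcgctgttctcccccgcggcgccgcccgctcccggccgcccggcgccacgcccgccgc
Nfe2l2, chr2:75704664-75704913, minus strand: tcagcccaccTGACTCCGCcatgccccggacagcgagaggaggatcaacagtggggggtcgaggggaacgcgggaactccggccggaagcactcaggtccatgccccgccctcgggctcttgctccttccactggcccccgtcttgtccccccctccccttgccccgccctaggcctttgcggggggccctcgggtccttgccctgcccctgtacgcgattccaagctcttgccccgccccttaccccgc
Txnrd1, chr10:82858956-82859205, plus strand: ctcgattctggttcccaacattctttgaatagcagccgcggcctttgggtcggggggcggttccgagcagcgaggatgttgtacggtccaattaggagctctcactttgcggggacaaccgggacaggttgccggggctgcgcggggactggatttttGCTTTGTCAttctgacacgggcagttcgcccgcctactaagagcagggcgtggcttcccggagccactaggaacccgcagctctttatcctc

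The antioxidant response element was searched as TGACNNNGC, which 10.4% of 21263 windows of this length upstream of protein-coding genes hold. It was found in Nfe2l2 (240 to 232 bases before the start), in Gclm (134 to 126) and before the second Txnrd1 start (92 to 84). The AP-1 site TGACTCA, held by 4.06% of windows, was found in Srxn1 at 102 to 96 and again at 45 to 39 bases before the start, read on the strand printed as TGAGTCA. The site nearer to the start runs on into TGANTCAGC, an AP-1-like form of the antioxidant element that 0.964% of windows hold and that was added to the search after the values had been seen. The NF-κB site GGGNNTTTC, held by 3.69% of windows, was in none of the 9 windows of the 7 members with an entry. The windows of Nqo1, Keap1, Slc7a11 and the other Txnrd1 starts held none of these motifs. A match is a description of letters and says nothing of binding, and the peaks themselves were not searched.

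Promoter peaks of the members were mostly of ordinary strength. Their means over the 19 libraries ran from 64.4 to 1117, with a median of 425 against 370.2 for all gene-start peaks. Gene-start peaks lie within 1 kb of the start of a protein-coding gene, or of either end where the reference gave no start. The strongest of the 11 promoter peaks were at Nfe2l2, Txnrd1 and Gclm. Between the highest and the lowest group mean the promoter peaks differed by 1.44-fold to 4.01-fold. Of the 11, 5 were highest in NSPs, 5 at 1 week and 1 at 72 h with TNF. Distal peaks had a median of 80.2, against 73.9 for all peaks away from gene starts, and a wider range between groups, from 1.19-fold to 9.58-fold. They were also more numerous and weaker than the promoter peaks, and the ranges were not compared with those of all peaks.

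**Figure D1:**
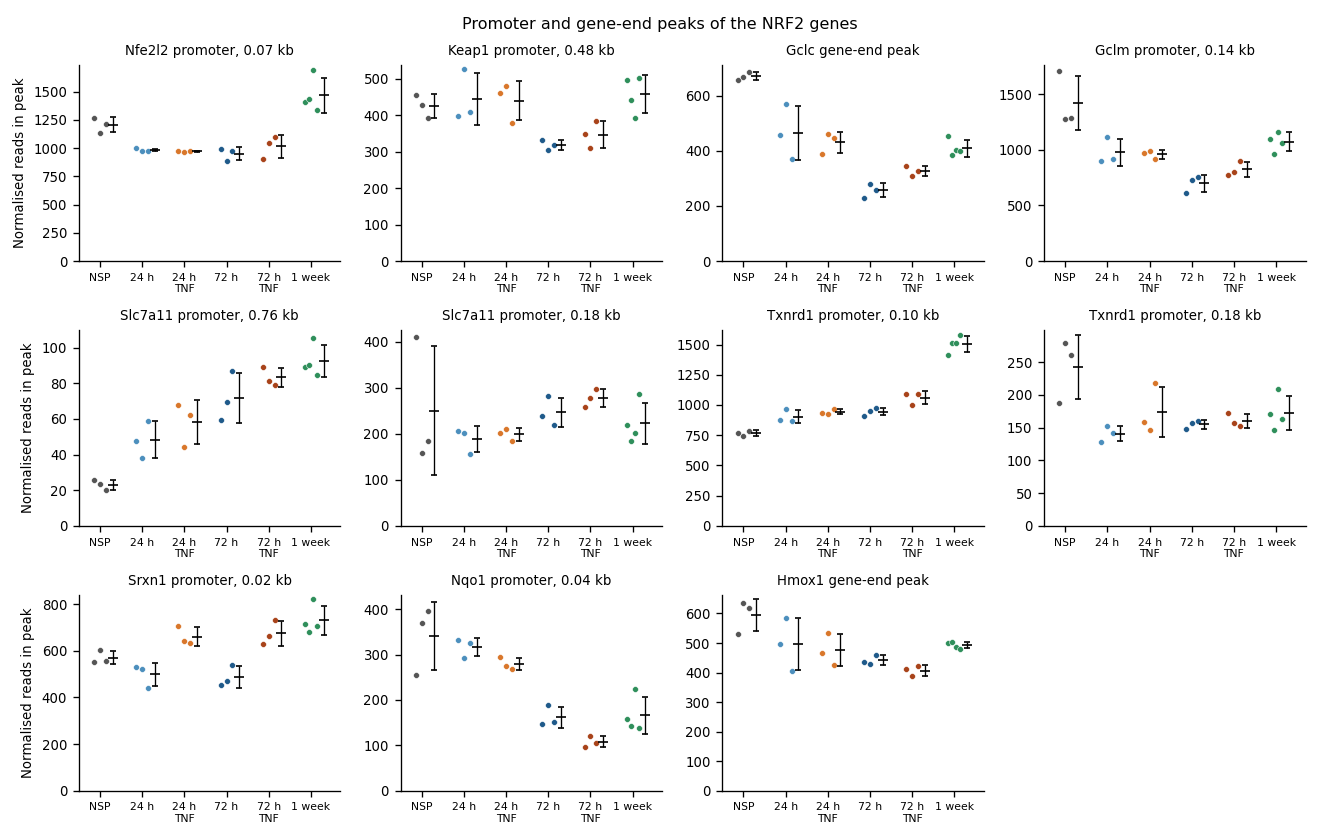
Normalised reads (y axis, linear, from 0) in the 11 promoter and gene-end peaks of the NRF2 genes, by group (x axis). Each point is a library and the bar beside it the group mean ± SD. Gclc, Gclm and Nqo1 sit highest in NSPs, the Txnrd1 peak 0.10 kb from its start sits highest at 1 week (1412 to 1578), and the Srxn1 libraries with TNF lie above those without at 24 h and at 72 h.

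Nfe2l2, which encodes NRF2 itself, had an open promoter in every group (chr2:75704346-75704846, 0.067 kb from the start). Its values were 1264, 1135 and 1216 in NSPs, 997, 974 and 978 at 24 h, 974, 962 and 975 at 24 h with TNF, 991, 882 and 975 at 72 h, 899, 1046 and 1096 at 72 h with TNF and 1404, 1430.0, 1692 and 1334 at 1 week. All libraries at 24 h and 72 h lay below all NSP libraries, and all 1 week libraries lay above them. The log2 fold change (± SE) against NSPs was -0.29 ± 0.10 (adjusted p = 0.0213) at 24 h, -0.34 ± 0.10 (adjusted p = 0.0054) at 72 h and 0.28 ± 0.10 (adjusted p = 0.0131) at 1 week. From 72 h to 1 week the peak rose by 0.62 ± 0.10 (adjusted p = 1.47e-05). These shifts were small and depended on the scaling. With libraries scaled by total reads the values at 24 h and 72 h were -0.10 and -0.07, and cyclic loess turned the value at 72 h to 0.06 (adjusted p = 0.576). Under cyclic loess the rises to 1 week were not called either, at 0.10 against NSPs (adjusted p = 0.252) and 0.04 against 72 h (0.717). The call at 24 h was also lost when only these groups were fitted (adjusted p = 0.0847) or without NSP replicate 3 (adjusted p = 0.0555) and that at 1 week without NSP replicate 2 (0.0652) or 1 week replicate 3 (0.0608).

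Keap1 encodes the repressor of NRF2. Its promoter peak (chr9:21238603-21239103) held 456, 429 and 392 in NSPs, 398, 527 and 410.1 at 24 h, 332, 304 and 319 at 72 h and 496, 442, 394 and 503 at 1 week. The 72 h libraries were the lowest and overlapped neither NSPs nor 1 week cells, while NSPs, 24 h and 1 week overlapped. The peak fell at 72 h, with a log2 change of -0.42 ± 0.13 (adjusted p = 0.00828) and rose from 72 h to 1 week by 0.52 ± 0.12 (adjusted p = 0.00156). Neither was called with total-read scaling (adjusted p = 0.341 and 0.239) or cyclic loess (0.149 and 0.216).

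Both genes of glutamate-cysteine ligase lost accessibility at their start or end on differentiation. Gclc and Gclm encode the catalytic and the modifier subunit of glutamate-cysteine ligase, the rate-limiting enzyme of glutathione synthesis. The Gclc gene-end peak (chr9:77754350-77754850) held 657, 667 and 687 in NSPs, 455, 568 and 369.5 at 24 h, 230.3, 281 and 259 at 72 h and 453, 383, 403 and 399 at 1 week. NSPs were highest, 72 h lowest, and neither overlapped another of these groups. The change from NSPs was -0.55 ± 0.13 (adjusted p = 0.00105), -1.39 ± 0.13 (adjusted p = 4.41e-10) and -0.71 ± 0.12 (adjusted p = 9.46e-06) at 24 h, 72 h and 1 week, or 2.61-fold lower at 72 h. The peak then rose from 72 h to 1 week by 0.67 ± 0.12 (adjusted p = 0.000104).

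The Gclm promoter peak (chr3:122245167-122245667) was higher in level and moved alike, with 1706, 1279.9 and 1284 in NSPs, 901, 1117 and 916 at 24 h, 611, 731 and 755 at 72 h and 1101, 962, 1164 and 1057 at 1 week. The 72 h libraries again lay below all of the others. Against NSPs the change was -0.53 ± 0.12 (adjusted p = 0.000584) at 24 h, -1.02 ± 0.12 (adjusted p = 3.09e-08) at 72 h and -0.40 ± 0.11 (adjusted p = 0.00267) at 1 week. The falls of Gclc and Gclm at all 3 times were called under every scaling tried. The rise of Gclm from 72 h to 1 week, 0.62 ± 0.11 (adjusted p = 0.000102), was not called with cyclic loess (0.07, adjusted p = 0.557).

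Slc7a11 encodes the cystine-glutamate antiporter that brings in cystine for glutathione. It has 2 peaks near its start, and with all libraries only the weaker passed the test against NSPs. The peak over the start (chr3:50443543-50444043) held 411, 157 and 183 in NSPs, 207, 202 and 155 at 24 h, 238, 282 and 219 at 72 h and 219.5, 184, 202 and 286 at 1 week. NSP replicate 1 was the highest of all libraries, and the other NSP libraries lay within the range of the differentiating cells. The changes from NSPs were -0.29 ± 0.22 (adjusted p = 0.297), 0.10 ± 0.22 (adjusted p = 0.707) and -0.05 ± 0.21 (adjusted p = 0.837). Without NSP replicate 1 the values at 72 h and 1 week were 0.53 (adjusted p = 0.00526) and 0.37 (adjusted p = 0.0326), both called higher. The value at 24 h was called lower, at -0.55, when NSP replicate 2 was left out (adjusted p = 0.045).

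The other Slc7a11 peak (chr3:50442605-50443105), 0.758 kb into the gene from the start, was singled out after its values had been seen. It held 25.7, 23.6 and 19.9 in NSPs, 47.8, 38.4 and 59.1 at 24 h, 59.2, 69.4 and 86.7 at 72 h and 89.1, 90.4, 106 and 84.7 at 1 week. All differentiating libraries lay above all NSP libraries. It rose by 1.02 ± 0.24 (adjusted p = 0.000807) at 24 h, 1.59 ± 0.24 (adjusted p = 1.73e-06) at 72 h and 1.96 ± 0.22 (adjusted p = 7.89e-09) at 1 week, or 3.89-fold.

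Txnrd1, the cytosolic thioredoxin reductase, has 3 starts in the table used, and the one farthest upstream had no peak within 1 kb. The peak 0.104 kb from the second start (chr10:82858852-82859352) rose over differentiation. Its values were 772, 741 and 788 in NSPs, 877, 971 and 866 at 24 h, 912, 949.8 and 971 at 72 h and 1412, 1514, 1514 and 1578 at 1 week. NSPs were lowest, 1 week highest, and 24 h and 72 h overlapped between them. The rise was 0.24 ± 0.09 (adjusted p = 0.0391) at 24 h, 0.30 ± 0.09 (adjusted p = 0.00721) at 72 h and 0.97 ± 0.09 (adjusted p = 7.07e-11) at 1 week. At 24 h the call was lost without NSP replicate 2 (adjusted p = 0.113), NSP replicate 3 (0.0607), 24 h replicate 1 (0.0526) or 24 h replicate 2 (0.147), and when only these groups were fitted (0.171).

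The next start, about 1 kb on, had a weaker peak (chr10:82860270-82860770, singled out after its values had been seen) that went the other way. It held 188, 279 and 261 in NSPs, 129, 152 and 142 at 24 h, 148, 157 and 161 at 72 h and 171, 147, 209 and 163 at 1 week. It fell, with a log2 change of -0.76 ± 0.17 (adjusted p = 0.000556) at 24 h, -0.62 ± 0.17 (adjusted p = 0.00271) at 72 h and -0.48 ± 0.16 (adjusted p = 0.00963) at 1 week. The call at 1 week was lost without NSP replicate 2 (adjusted p = 0.0752) and that at 72 h with total-read scaling (0.0921). The difference between the changes of the neighbouring Txnrd1 peaks, or of the Slc7a11 peaks, was not tested.

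Srxn1, sulfiredoxin, restores over-oxidised peroxiredoxins. Its promoter peak (chr2:152105257-152105757, 0.017 kb from the start) held 553, 604 and 554 in NSPs, 532, 521 and 442 at 24 h, 452, 470.1 and 539 at 72 h and 714, 682, 821 and 706 at 1 week. It did not pass the test at 24 h or 72 h (-0.20 ± 0.11, adjusted p = 0.149 and -0.23 ± 0.11, adjusted p = 0.0783) and rose at 1 week by 0.35 ± 0.11 (adjusted p = 0.00406). Without 72 h replicate 3 the value at 72 h was called lower (-0.31, adjusted p = 0.038).

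Nqo1, a quinone reductase long used as a marker of NRF2 activity, did not pass the test at 24 h and was lower at the later times. The promoter peak (chr8:107402999-107403499) held 255, 371 and 396 in NSPs, 331, 294 and 325 at 24 h, 147, 188 and 150.4 at 72 h and 159, 143, 224.5 and 137 at 1 week. NSPs and 24 h overlapped, as did 72 h and 1 week, and the later groups lay below the earlier ones. The changes from NSPs were -0.08 ± 0.18 (adjusted p = 0.734) at 24 h, -1.05 ± 0.18 (adjusted p = 8.04e-06) at 72 h and -1.04 ± 0.16 (adjusted p = 2.5e-06) at 1 week, the last a 2.05-fold fall. The lower levels at 72 h and 1 week lie between untagged and tagged libraries.

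Hmox1, haem oxygenase 1, breaks haem down to biliverdin, iron and carbon monoxide. Its gene-end peak (chr8:75093348-75093848) held 532, 635 and 618 in NSPs, 498, 584 and 406 at 24 h, 436, 431 and 460.1 at 72 h and 501, 505, 486 and 480.4 at 1 week. All libraries at 72 h and 1 week lay below all NSP libraries, and 24 h overlapped with both. The fall at 72 h was -0.42 ± 0.12 (adjusted p = 0.00414), which total-read scaling and cyclic loess did not call (adjusted p = 0.275 and 0.177). At 1 week it was -0.27 ± 0.12 (adjusted p = 0.042), a call lost without NSP replicate 2 or 3 (adjusted p = 0.15 and 0.12) and without any of the 1 week replicates 1 to 4 (0.0602, 0.0554, 0.0671 and 0.0789), or when only these groups were fitted (0.0517). The value at 24 h, -0.27 ± 0.12 (adjusted p = 0.0681), became a call without NSP replicate 1 (0.0175) or 24 h replicate 2 (0.0127).

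Counted over the 11 promoter peaks, 2 rose and 4 fell at 24 h against NSPs, where 4.61% of all gene-start peaks tested were called higher and 41.5% lower. At 72 h, 2 rose and 7 fell (7.54% and 56.9% of gene-start peaks). At 1 week, 4 rose and 5 fell (25.1% and 28.1%). Between 72 h and 1 week, 6 rose and 0 fell by limma (57.0% and 5.18%), and none was lower at an unadjusted p under 0.05, by edgeR or by DESeq2. The falls at 24 h and 72 h and the rises from 72 h to 1 week were thus about as frequent as at other gene starts. The median log2 change of the 11 was -0.27, -0.42 and -0.05 at 24 h, 72 h and 1 week, against -0.29, -0.42 and -0.0035 for gene-start peaks.

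The scaling of libraries moved these counts. With total reads in place of the deposited scaling, the median change of all peaks was 0.11 in place of -0.07 at 24 h, 0.21 in place of -0.06 at 72 h and -0.31 in place of 0.02 between 72 h and 1 week. Promoter falls then numbered 3 at 24 h and 3 at 72 h, with 5 rises and 1 fall from 72 h to 1 week. Over all peaks, the calls at 24 h were 26112 higher and 12367 lower in place of 21492 and 20490. At 72 h they were 32636 and 18509 in place of 25196 and 27509, and between 72 h and 1 week 7965 and 30033 in place of 20035 and 14383.

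**Figure D2:**
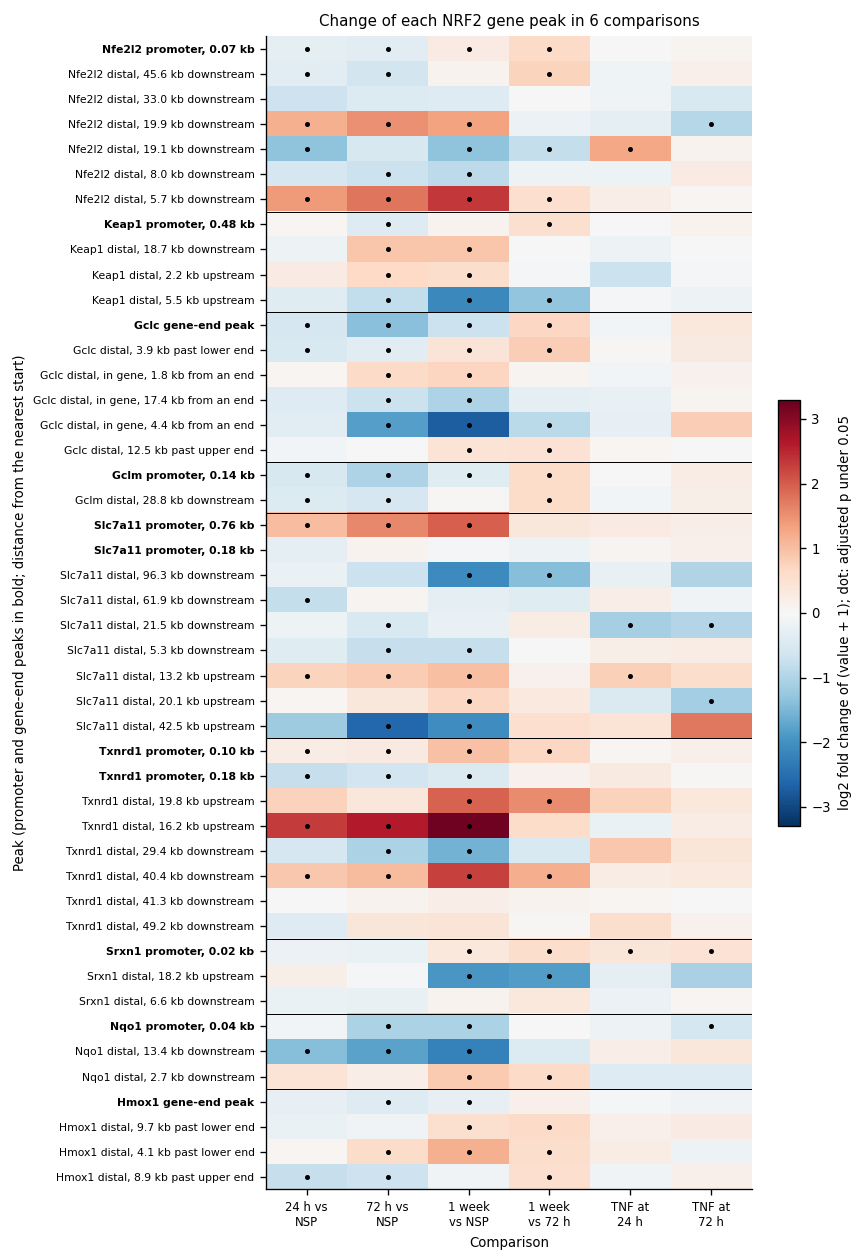
Log2 fold change of (value + 1) at each of the 46 peaks (rows, grouped by gene, promoter and gene-end peaks in bold, with the distance of the peak centre from the nearest start or from a gene end) in 6 comparisons (columns). Red is higher, blue lower, and a dot marks an adjusted p under 0.05. The largest rise is at the distal Txnrd1 peak 16.2 kb upstream at 1 week (3.22), and dots are sparse in the TNF columns.

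Distal peaks, which were more numerous and weaker, spanned a wider range of changes than promoter peaks. Peaks of the same gene often went in opposite directions. Calls went both ways among all peaks away from gene starts too, with 27.7% higher and 19.7% lower at 24 h against NSPs. Around Nfe2l2, the clearest change was at a peak 5.68 kb downstream of the start, inside the gene (chr2:75698737-75699237). It held 94.6, 65.5 and 75.8 in NSPs, 245, 193 and 191 at 24 h, 289.5, 254 and 263 at 72 h and 368, 378, 434 and 394 at 1 week. None of these 4 groups overlapped, in rising order from NSPs to 1 week. The rise from NSPs was 1.41 ± 0.14 (adjusted p = 3.6e-09) at 24 h, 1.77 ± 0.14 (adjusted p = 1.75e-11) at 72 h and 2.32 ± 0.14 (adjusted p = 3.97e-15) at 1 week, a 5.00-fold difference at the end. Deeper in the gene, a pair of peaks 19.9 and 19.1 kb from the start moved in opposite directions at 24 h. The first (chr2:75684519-75685019) held 21.0, 22.6 and 26.6 in NSPs and 56.9, 64.9 and 41.9 at 24 h and rose by 1.17 ± 0.29 (adjusted p = 0.00147). The second (chr2:75685328-75685828) held 36.8, 90.0 and 83.7 and 25.0, 25.1 and 25.9 and fell, with a log2 change of -1.33 ± 0.33 (adjusted p = 0.00138). The reads behind its 24 h values were 22, 17 and 21. The strongest peak in the Nfe2l2 window (chr2:75658823-75659323) lay at the start of the neighbouring gene Hnrnpa3 and fell at 72 h, with a log2 change of -0.60 ± 0.13 (adjusted p = 0.000294). With cyclic loess that fall was -0.17 and not called (adjusted p = 0.096). Its fall at 24 h, -0.35 ± 0.13 (adjusted p = 0.0297), was lost with total-read scaling (adjusted p = 0.239), cyclic loess (0.435) or a fit of these groups alone (0.146), and without NSP replicate 1 (adjusted p = 0.292) or 24 h replicate 3 (0.159), and its value at 1 week, 0.13 ± 0.12 (adjusted p = 0.365), became a call without NSP replicate 1 (0.00557).

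The strongest distal Keap1 peak, 9.05 kb beyond the end of the gene (chr9:21220427-21220927), separated the earlier from the later groups. It held 173, 171 and 173 in NSPs, 129.8, 156 and 177 at 24 h, 339.7, 327 and 316 at 72 h and 337, 305, 334 and 328 at 1 week. It rose at 72 h by 0.92 ± 0.14 (adjusted p = 2.82e-06) and at 1 week by 0.91 ± 0.13 (adjusted p = 6.91e-07), again across the tag in the library names, while the value at 24 h was -0.17 ± 0.14 (adjusted p = 0.345). A Keap1 peak 5.53 kb upstream (chr9:21244609-21245109, singled out after its values had been seen) fell from 110.4, 130.02 and 135 in NSPs to 27.3, 35.1, 41.8 and 15.0 at 1 week (-2.12 ± 0.25, adjusted p = 1.6e-08). Its fall from 72 h to 1 week, -1.31 ± 0.25 (adjusted p = 0.000166), lies within tagged libraries. The window around Keap1 also overlaps the genes Pde4a and S1pr5.

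Within the Gclc gene and its flanks, 5 distal peaks included rises and falls. The strongest (chr9:77750428-77750928), 3.86 kb past the lower end of the gene, held 1416, 919 and 979 in NSPs, 783, 856 and 656 at 24 h, 807, 805 and 909 at 72 h and 1412, 1338, 1545 and 1585 at 1 week. It fell at 24 h, with a log2 change of -0.51 ± 0.13 (adjusted p = 0.00227) and rose at 1 week by 0.44 ± 0.12 (adjusted p = 0.0029). Its fall at 72 h, -0.37 ± 0.13 (adjusted p = 0.0182), was not called without NSP replicate 1 (adjusted p = 0.186), 72 h replicate 1 (0.0593) or 72 h replicate 2 (0.0596), nor with total-read scaling (0.444) or a fit of these groups alone (0.0803), and cyclic loess gave 0.01. An intragenic peak nearer to the upper end (chr9:77789870-77790370, singled out after its values had been seen) fell from 85.9, 103 and 125 in NSPs to 32.2, 25.1 and 29.3 at 72 h and 20.3, 28.1, 15.4 and 5.36 at 1 week (-1.81 ± 0.36, adjusted p = 8.57e-05 and -2.71 ± 0.34, adjusted p = 3.96e-08). The reads behind its 1 week values were 23, 36, 7 and 5. Gclm had 1 distal peak (chr3:122274091-122274591), at the start of the neighbouring gene Dnttip2. It held 682, 401 and 429 in NSPs and 311, 369.6 and 319.9 at 72 h, and fell, with a log2 change of -0.56 ± 0.16 (adjusted p = 0.00352), which total-read scaling did not call (0.0892). At 24 h it fell, with a log2 change of -0.46 ± 0.16 (adjusted p = 0.0172), a call lost with total-read scaling (adjusted p = 0.128), cyclic loess (0.0867) or a fit of these groups alone (0.131), and without NSP replicate 1 (adjusted p = 0.172) or 24 h replicate 3 (0.187).

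Slc7a11, the longest member, had 7 distal peaks, 6 of them inside the gene as RefSeq draws it. The strongest (chr3:50421872-50422372) lay 21.5 kb downstream of the start and held 1308, 518 and 563 in NSPs, 655, 776 and 526 at 24 h, 525, 496 and 524 at 72 h and 616, 558, 691 and 584 at 1 week. Its fall at 72 h against NSPs, -0.49 ± 0.20 (adjusted p = 0.0383), rested on NSP replicate 1. Without that library it was -0.07 (adjusted p = 0.673), and the call was lost too under total-read scaling (0.311), cyclic loess (0.266), DESeq2 (0.0589) and a fit of these groups alone (0.164), and without 72 h replicate 1 (0.0695), 2 (0.0936) or 3 (0.0687). At 1 week the value was -0.25 ± 0.19 (adjusted p = 0.253), and it was called lower without NSP replicate 2 (0.0281). A weaker peak 13.2 kb upstream of the start (chr3:50456513-50457013) rose from 39.1, 29.7 and 33.9 in NSPs to 74.0, 50.2 and 51.7 at 24 h and 78.5, 66.2, 55.0 and 75.1 at 1 week (0.75 ± 0.24, adjusted p = 0.0104 and 0.98 ± 0.22, adjusted p = 0.000281). The former call was lost without 24 h replicate 1 (adjusted p = 0.0768) or when only these groups were fitted (0.0563).

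The largest rise of the 46 peaks was at Txnrd1. A peak 16.2 kb upstream of its first start (chr10:82817459-82817959) was close to closed in NSPs, at 7.59, 3.30 and 11.3, and held 45.5, 29.5 and 37.0 at 24 h, 43.8, 57.4 and 39.5 at 72 h and 74.1, 69.4, 63.8 and 76.1 at 1 week. It rose by 2.30 ± 0.33 (adjusted p = 1.23e-06), 2.62 ± 0.33 (adjusted p = 7.45e-08) and 3.22 ± 0.31 (adjusted p = 2.04e-10), and the rise at 24 h lies within untagged libraries. The reads behind its NSP values were only 13, 7 and 17. A stronger peak 2.99 kb beyond the end of the gene (chr10:82900461-82900961) held 44.4, 75.4 and 81.7 in NSPs, 115, 103 and 149 at 24 h, 129, 142 and 131 at 72 h and 324.5, 323, 330.1 and 271 at 1 week. Its rise was 0.89 ± 0.19 (adjusted p = 0.000308) at 24 h, 1.03 ± 0.19 (adjusted p = 2.98e-05) at 72 h and 2.24 ± 0.18 (adjusted p = 3.82e-12) at 1 week, and it rose again from 72 h to 1 week by 1.21 ± 0.18 (adjusted p = 6.64e-06).

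Srxn1 had 2 distal peaks. The stronger (chr2:152111856-152112356), 0.73 kb beyond the end of the gene, was not called in any comparison with all libraries, with 190.4, 212 and 221 in NSPs and 208, 249, 262 and 187 at 1 week (0.11 ± 0.15, adjusted p = 0.512). From 72 h to 1 week its value was 0.35 ± 0.15 (adjusted p = 0.0607), which was called higher when only these groups were fitted (adjusted p = 0.0431), without 72 h replicate 1 (0.0378) or without 1 week replicate 4 (0.0277). The weaker, 18.2 kb upstream (chr2:152087062-152087562, singled out after its values had been seen), held 35.6, 42.9 and 40.5 in NSPs, 38.7, 51.6 and 46.8 at 24 h, 46.3, 40.7 and 28.0 at 72 h and 15.0, 3.12, 17.6 and 9.65 at 1 week. It fell late, with a log2 change of -1.92 ± 0.38 (adjusted p = 6.63e-05) at 1 week, while the promoter of the same gene rose. The reads behind its 1 week values were only 17, 4, 8 and 9.

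At Nqo1 the strongest distal peak (chr8:107389532-107390032), 13.4 kb downstream of the start and inside the gene, fell at 24 h already, when its promoter peak was not called. It held 300.3, 349 and 329 in NSPs, 129, 127 and 115 at 24 h, 60.5, 119.6 and 116 at 72 h and 67.0, 79.5, 83.6 and 49.3 at 1 week. NSPs lay above every other library. The fall was -1.39 ± 0.21 (adjusted p = 3.64e-06), -1.77 ± 0.21 (adjusted p = 3.62e-08) and -2.23 ± 0.20 (adjusted p = 5.34e-11), or 4.70-fold at 1 week. From 72 h to 1 week the value was -0.46 ± 0.20 (adjusted p = 0.0685), which edgeR and DESeq2 called lower (adjusted p = 0.0152 and 0.0187), as did limma without 72 h replicate 1 (adjusted p = 0.00295) or 1 week replicate 3 (0.0391).

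The strongest distal peak in the Hmox1 window (chr8:75109215-75109715) was at the start of Mcm5, a gene of the replicative helicase. It held 1017, 863 and 851 in NSPs, 568, 552 and 493 at 24 h, 516, 592 and 598 at 72 h and 889, 822, 755 and 859 at 1 week, and fell, with a log2 change of -0.76 ± 0.11 (adjusted p = 3.1e-06) and -0.68 ± 0.11 (adjusted p = 9.79e-06) at 24 h and 72 h. On the other side of Hmox1, 4.05 kb past its lower end (chr8:75089315-75089815, singled out after its values had been seen), a peak rose from 278, 310.4 and 282 in NSPs to 432, 469 and 416 at 72 h and 627, 673, 609.6 and 727 at 1 week. The rise was 0.60 ± 0.13 (adjusted p = 0.000195) and 1.18 ± 0.12 (adjusted p = 6.46e-10), at times when the gene-end peak was called lower.

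**Figure D3:**
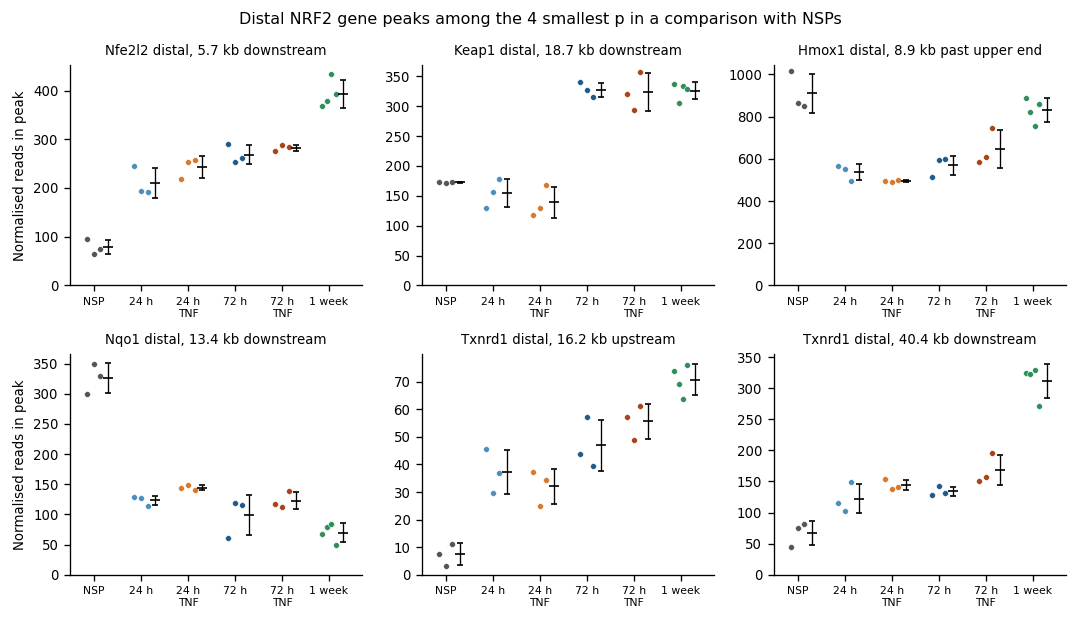
Normalised reads (y axis, linear, from 0) by group (x axis) in the 6 distal peaks that were among the 4 of smallest p at 24 h, 72 h or 1 week against NSPs, titled by gene and distance. Points are libraries and bars group means ± SD. The Nfe2l2 and both Txnrd1 peaks are lowest in NSPs and highest at 1 week, the Nqo1 peak is highest in NSPs (300.3 to 349), and the Keap1 peak differs between the 24 h and 72 h groups.

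Over the 35 distal peaks, 5 rose and 7 fell at 24 h, where 27.7% of all peaks away from gene starts were called higher and 19.7% lower. At 72 h, 9 rose and 13 fell (32.1% and 26.3%). At 1 week, 15 rose and 11 fell (35.2% and 34.6%), and between 72 h and 1 week 11 rose and 5 fell (16.3% and 18.1%). The falls at 24 h and the calls at 1 week against NSPs were about as frequent as the background, and the other shares were not tested against it. With total-read scaling, 4 distal peaks rose and 9 fell between 72 h and 1 week. The median log2 change of the distal peaks was -0.21, -0.11 and 0.13 at 24 h, 72 h and 1 week, against 0.02, 0.06 and 0.02 for all peaks away from gene starts. Of the 35, 3 were gene-start peaks of another gene. Other protein-coding genes also overlapped the windows of Keap1 (Pde4a and S1pr5), Nqo1 (Nfat5 and Nob1), Txnrd1 (Eid3) and Srxn1 (Scrt2). Which gene a distal peak acts on was not tested.

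With TNF, 3 of the 46 peaks rose and 1 fell at 24 h, and 1 rose and 4 fell at 72 h. Over all 88919 peaks tested, 6274 rose and 3136 fell at 24 h, and 5551 rose and 4932 fell at 72 h. The shares of the members were not tested against these. Of the 11 promoter peaks, 1 rose and 0 fell at 24 h (1.61% and 0.592% of gene-start peaks), with none lower at an unadjusted p under 0.05 in limma, edgeR or DESeq2, and 1 rose and 1 fell at 72 h (3.14% and 0.939%). The peak that rose at both times was that of Srxn1. At 24 h it held 532, 521 and 442 without TNF and 707, 641 and 632 with it, and at 72 h 452, 470.1 and 539 without and 629, 664 and 732 with it. At each time every TNF library lay above every library without TNF. The rise was 0.41 ± 0.11 (adjusted p = 0.0164) at 24 h and 0.47 ± 0.11 (adjusted p = 0.00523) at 72 h, or 1.33-fold and 1.39-fold. The call at 24 h was lost without 24 h replicate 3 (adjusted p = 0.0898) or TNF replicate 1 (0.0894), and that at 72 h held without any 1 library. The Srxn1 levels with TNF overlapped those of 1 week cells. The peak covers the whole of the Srxn1 window printed above, with its AP-1 matches, and a link between these was not tested.

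The Nqo1 promoter peak fell with TNF at 72 h, from 147, 188 and 150.4 to 96.6, 121 and 106 (-0.58 ± 0.18, adjusted p = 0.0288). It did not pass the test at 24 h, with 331, 294 and 325 without TNF and 294, 276 and 268 with it (-0.18 ± 0.18, adjusted p = 0.63). The call at 72 h was lost without 72 h replicate 2 (adjusted p = 0.148) or 3 (0.0502) and without TNF replicate 1 (0.12) or 3 (0.0841). The promoter peak of Nfe2l2 was at -0.02 ± 0.10 (adjusted p = 0.95) and 0.09 ± 0.10 (adjusted p = 0.636), that of Keap1 at -0.01 ± 0.13 (adjusted p = 0.977) and 0.12 ± 0.13 (adjusted p = 0.62), and the gene-end peak of Hmox1 at -0.05 ± 0.12 (adjusted p = 0.877) and -0.12 ± 0.12 (adjusted p = 0.593), none of them called. The Gclc gene-end peak had a higher value with TNF at 72 h in every library (343, 309 and 326 against 230.3, 281 and 259) without passing the test (0.35 ± 0.13, adjusted p = 0.0856), and was called when only these groups were fitted (adjusted p = 0.0362).

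Among the 35 distal peaks, 2 rose and 1 fell with TNF at 24 h (8.03% and 4.05% of peaks away from gene starts). At 72 h, 0 rose and 3 fell by limma (6.80% and 6.37%), with 4 higher at an unadjusted p under 0.05 and 0 called higher by edgeR or DESeq2. The Slc7a11 peak 21.5 kb downstream of the start (chr3:50421872-50422372) lost accessibility at both times. At 24 h it held 655, 776 and 526 without TNF and 281, 347 and 287 with it. The values at 72 h were 525, 496 and 524 without and 291, 254 and 251 with TNF. All TNF libraries lay below all libraries without TNF, NSPs and 1 week cells included. The fall was -1.08 ± 0.20 (adjusted p = 0.000549) at 24 h and -0.96 ± 0.20 (adjusted p = 0.00192) at 72 h, or 2.12-fold and 1.94-fold, and neither call was lost when a library was left out.

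Other Slc7a11 peaks moved with TNF at a single time. The peak 13.2 kb upstream of the start held 74.0, 50.2 and 51.7 at 24 h and 109.7, 77.6 and 117 with TNF (0.78 ± 0.24, adjusted p = 0.0292). At 72 h it held 65.6, 57.4 and 61.2 and 111, 75.4 and 91.2 with TNF, not called (0.57 ± 0.24, adjusted p = 0.122). Its call at 24 h was lost without 24 h replicate 2 (adjusted p = 0.121) or 3 (0.0964) and without TNF replicate 1 (0.113) or 3 (0.15). A peak 20.1 kb upstream (chr3:50463487-50463987) fell at 72 h, from 118, 80.1 and 112 to 42.0, 45.8 and 52.8 (-1.11 ± 0.23, adjusted p = 0.00124), with -0.47 ± 0.23 (adjusted p = 0.209) at 24 h. The Srxn1 peak 18.2 kb upstream had lower values with TNF at 72 h, 13.4, 17.7 and 21.6 against 46.3, 40.7 and 28.0 (-1.08 ± 0.41, adjusted p = 0.0875), which edgeR and DESeq2 called (adjusted p = 0.0467 and 0.0278) and limma did not. The peak over the Slc7a11 start did not pass the test at either time (0.09 ± 0.22, adjusted p = 0.879 and 0.18 ± 0.22, adjusted p = 0.67).

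In Nfe2l2, the pair of intragenic peaks about 20 kb from the start were called with TNF at different times. The peak at chr2:75685328-75685828 rose with TNF at 24 h from 25.0, 25.1 and 25.9 to 53.1, 52.8 and 90.3 (1.29 ± 0.33, adjusted p = 0.0093), when NSPs held 36.8, 90.0 and 83.7. At 72 h it held 37.3, 55.0 and 43.3 and 51.0, 47.3 and 48.0 (0.12 ± 0.33, adjusted p = 0.859). Without TNF replicate 3 the call at 24 h was lost (adjusted p = 0.0913). The peak at chr2:75684519-75685019 fell with TNF at 72 h, from 73.3, 56.2 and 76.5 to 45.6, 29.6 and 31.2 (-0.95 ± 0.29, adjusted p = 0.0299), and had -0.32 ± 0.29 (adjusted p = 0.59) at 24 h. That call was lost without 72 h replicate 1 (adjusted p = 0.104) or 3 (0.108) and without TNF replicate 2 (0.116) or 3 (0.106).

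**Figure D4:**
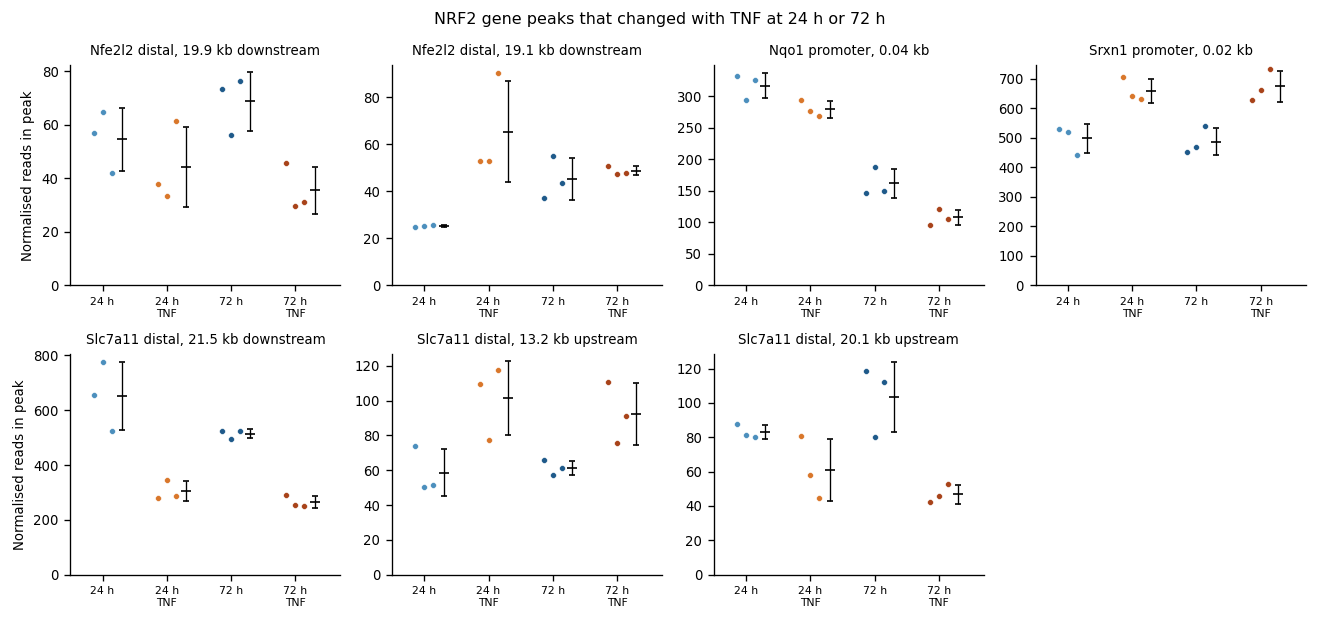
Normalised reads (y axis, linear, from 0) at 24 h and 72 h without and with TNF (x axis) in the 7 NRF2 gene peaks called at either time. Points are libraries and bars group means ± SD. The Srxn1 promoter lies higher and the Slc7a11 peak 21.5 kb downstream lies lower with TNF at both times, and the other 5 were called at a single time.

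Whether the effect of TNF differed between 24 h and 72 h was tested by the interaction of TNF with time. Both 72 h groups carry the tag in their library names and both 24 h groups lack it. A difference between the times therefore cannot be told apart from the tag. By limma, 0 of the 46 peaks were called (0.00112% of all peaks, 1 of 88919), with 4 at an unadjusted p under 0.05, and edgeR and DESeq2 called 0 as well. A call at a single time therefore does not show that the times differ. Of 4 TNF response genes with a promoter peak, 2 rose at 24 h and 4 at 72 h in the same libraries. Cxcl10, a chemokine gene, rose with TNF by 1.83 ± 0.22 (adjusted p = 1.46e-06) at 24 h and 2.12 ± 0.22 (adjusted p = 1.4e-07) at 72 h, and Nfkbia, the inhibitor of NF-κB, by 0.50 ± 0.11 (adjusted p = 0.00192) and 0.83 ± 0.11 (adjusted p = 3.94e-06). The summed promoter signal of 7 astrocyte markers was 1887 to 2226 at 24 h and 1779 to 1877 with TNF, and 2369 to 2559 at 72 h and 2063 to 2072 with TNF, where 2 of the 7 fell (Gfap and S100b). That of 5 stem and progenitor markers was 2351 to 2698 at 24 h and 2401 to 2564 with TNF, and 2262 to 2498 at 72 h and 2557 to 2740.0 with TNF. The part of these shifts in the TNF results was not tested.

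Further genes of the pathway were followed through the promoter peak closest to the start, for 41 of 45 genes listed. Where the reference gave no start for a gene, the peak closest to either end was taken. The cell type and TNF response markers were matched in the same way. At 24 h, 1 rose and 20 fell against NSPs, where 4.61% and 41.5% of all gene-start peaks did. At 72 h, 2 rose and 23 fell (7.54% and 56.9%), at 1 week 13 rose and 4 fell (25.1% and 28.1%), and between 72 h and 1 week 32 rose (57.0%). Falls at 24 h and 72 h were thus about as frequent as at other gene starts. The median changes in these comparisons were -0.29, -0.38, 0.14 and 0.51, against -0.29, -0.42, -0.0035 and 0.40 for gene-start peaks. Among those that rose at 1 week, Osgin1, an oxidative stress-induced growth inhibitor, changed by 2.81 ± 0.17 (adjusted p = 6.83e-15) and Nfe2l1, a relative of NRF2 that controls proteasome genes, by 1.50 ± 0.12 (adjusted p = 2.75e-12). Bach1, a repressor that competes with NRF2 for its elements, fell, with a log2 change of -0.67 ± 0.14 (adjusted p = 0.000234) at 24 h and -0.87 ± 0.14 (adjusted p = 4.37e-06) at 72 h. Gstp1 and Txnrd2 are 2 of the 212 peaks that divide by the library tag, and without them 21 fell at 72 h and 2 at 1 week. With TNF, 1 rose and 1 fell at 24 h, where 1.61% and 0.592% of gene-start peaks did. Osgin1 rose by 0.74 ± 0.18 (adjusted p = 0.0063) and Sqstm1, whose product p62 binds KEAP1, fell, with a log2 change of -0.48 ± 0.11 (adjusted p = 0.00416). At 72 h, 4 rose (3.14% of gene-start peaks). They were Maff, a small MAF partner (0.55 ± 0.14, adjusted p = 0.00781), Gsr, glutathione reductase (0.44 ± 0.15, adjusted p = 0.0481), Gstm1, a glutathione transferase (0.39 ± 0.11, adjusted p = 0.0151), and Pgd, an NADPH-producing dehydrogenase (0.30 ± 0.10, adjusted p = 0.0397). These genes were singled out after their values had been seen. Their calls were not followed under other scalings, under other tools or with a library left out. The same holds for the cell type and TNF response markers.

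The promoter peaks whose pattern was most like that of Nfe2l2 over the 19 libraries, among 13521 gene-start peaks, were those of Ckap2l (Pearson r = 0.970 of the log2 values), Coq8a (0.967) and Hsp90b1 (0.963). Like Nfe2l2 they were lower at 24 h and 72 h than in NSPs and highest at 1 week, with group means of Hsp90b1 at 2617 in NSPs, 2069 at 72 h and 3597 at 1 week. For the Hmox1 gene-end peak they were Hk2 (0.893), Acyp2 (0.889) and Psme4 (0.888), which were highest in NSPs. These correlations describe libraries that share groups and scaling and carry no test.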

How the data were processed

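ATAC-seq libraries were sequenced as paired ends. By the study's methods the authors trimmed reads with Trim Galore after FastQC, aligned them by Bowtie2 and dropped mitochondrial reads (SAMtools). Peaks were called with MACS, and those in blacklisted regions were left out. Differential accessibility was tested with DiffBind. The paper's methods do not name the genome build or the version of MACS, which were taken here as mm10 and MACS2. Versions and the way the table was scaled are not given in the sources used here. The deposited table holds, per the file headers and its values, 1 signal value per peak and library for 90154 peaks, and 100% of the values are whole multiples of the smallest value of their column (tolerance 0.01), that is, reads divided by a size factor. The reads were recovered on that basis. Every column was mapped to a sample by its name, and whether peaks were called per library or on pooled libraries is not stated for the table. Coordinates are as deposited, and whether starts count from 0 or 1 is not stated.

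Peaks passing edgeR's filterByExpr (minimum count 10) numbered 88919, and 1235 were left out; all 46 member peaks passed. Values were tested as log2(value + 1) by limma-trend over all 19 libraries with a mean per group, two-sided, with Benjamini-Hochberg adjustment over the peaks tested and calls at an adjusted p of 0.05. Fold changes are on that scale, which understates changes of low peaks. The 7 comparisons were 24 h, 72 h and 1 week with NSPs, 1 week with 72 h, TNF at 24 h, TNF at 72 h, and the interaction of TNF with time. Genes came from RefSeq (GRCm38.p6), whose table of starts covers 79.9% of 21900 protein-coding genes; the others were matched by either end. The members and lists were chosen with earlier results of these data known. Each member was described through the promoter peak nearest to its start, with the distal peak of the highest mean and, per comparison with NSPs or TNF, the 4 distal peaks of smallest p among calls; peaks and genes beyond that are named as such.

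Alternatives were total-read scaling, cyclic loess, edgeR with TMM and DESeq2 on the recovered reads, a pseudocount of 5, no filter, a fit of the groups compared alone, replicate blocks and each library left out. The steps were tested on simulated data. R 4.3.3, limma 3.58.1, edgeR 4.0.16, DESeq2 1.42.0, Python 3.11.15, pandas 2.3.3, numpy 2.4.6 and matplotlib 3.10.9 were used.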

Additional observations from a re-analysis of the deposited data

Results flagged for a closer look

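At the Txnrd1 peak 2.99 kb beyond the end of the gene, 1 week replicate 4 stood apart at 271, while the other 1 week libraries held 324.5, 323 and 330.1. Its gap to the nearest of the others, as a share of the range of the group, passed Dixon's critical value for 4 libraries. This was 1 of 30 peaks examined, and chance marks about 1 group in 20.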

How the results depend on the processing

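Counts of member peaks called (of 46) depended mostly on how libraries were scaled; the cause was not tested. With total-read scaling, falls against NSPs numbered 7 at 24 h (11 before) and 9 at 72 h (20 before), and between 72 h and 1 week rises went from 17 to 9 and falls from 5 to 10. Cyclic loess gave 13 falls at 72 h, 8 rises and 2 falls between 72 h and 1 week, 2 falls with TNF at 24 h (1 before) and 2 rises with TNF at 72 h (1 before). With only the groups compared there were 7 falls at 24 h, 3 falls between 72 h and 1 week and 3 rises with TNF at 72 h, and with no filter 2 such rises.

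Between libraries with the same replicate number in the title, the correlation of deviations from group means ran from -0.031 to 0.11. Libraries with different numbers were not compared, so this check cannot decide whether the numbers pair the libraries. With a replicate block by title there were 2 falls between 72 h and 1 week and 2 rises with TNF at 72 h. A block by the number in the library names, added after the data were seen, gave 2 and 2, with 2 falls in place of 4 for TNF at 72 h. Under them the Txnrd1 promoter call at 24 h was lost (adjusted p = 0.0607 by title and 0.0521 by library name), and the block by title ended the Hmox1 call at 1 week (0.082) and called the Srxn1 peak 0.73 kb beyond the gene higher from 72 h to 1 week (0.0324). The block by library name ended the TNF calls at 72 h of the Nqo1 promoter (0.0641) and the Nfe2l2 peak 19.9 kb from the start (0.11).

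Leaving out 1 library gave 16 to 17 rises and 2 to 6 falls between 72 h and 1 week (2 without 72 h replicate 2 or 3 or 1 week replicate 4, 3 without 1 week replicate 2). For TNF it gave 1 to 3 rises and 1 to 2 falls at 24 h (1 rise without 24 h replicate 3 or TNF replicate 1 or 3, 2 falls without TNF replicate 3) and 1 to 2 rises and 2 to 3 falls at 72 h (2 rises without 72 h replicate 3, 2 falls without it or without TNF replicate 3). Counts against NSPs stayed within 1.5 times. No member peak was called for the interaction under any of these settings. Over all peaks the interaction was called at 1 peak by limma, at 17 higher and 70 lower by DESeq2, and at 26 and 162 when only the groups compared were fitted. TNF calls at 72 h over all peaks went from 5551 higher and 4932 lower to 4221 and 6601 with total-read scaling.

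Of the log2 changes of named peaks that were called with or without the alternative, 3 turned sign: the Nfe2l2 promoter at 72 h (0.057) and the Gclc peak 3.86 kb past the lower end at 72 h (0.012) with cyclic loess, and the Slc7a11 peak over the start at 1 week without NSP replicate 1 (0.37, with -0.32 without NSP replicate 2). Besides these, 57 calls were lost and 18 gained over the other settings, with 1489 values unchanged in direction and call, and 49 were lost and 12 gained on leaving out a library. Changes called under neither setting turned sign in 36 cases under the other settings and in 36 on leaving out a library. How depth bears on these calls was not tested.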
